A study of Mus musculus with 6 samples.

Results

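The 48 genes described here are mitosis and spindle genes: mitotic cyclins and kinases, kinesins, and proteins of the kinetochore, the spindle checkpoint and cytokinesis. They were taken by gene symbol from a table of 24421 genes, all 48 were found, and all 48 passed the filter on low counts, which left 12820 genes for the test. The data are RNA-seq counts for 6 samples of Neuro2a cells, a line derived from a mouse neuroblastoma that divides continuously in culture. All 6 samples are labelled wild type and were harvested 48 h after an adenovirus (ADV) was added. In 3 samples the virus carried a control hairpin (ADV-shCtrl, here shCtrl), and in the other 3 a hairpin against Fam172a (ADV-shFam172a, here shFam172a). The study concerns Fam172a in obesity and energy balance, and the contrast between the arms shows how the transcriptome differs under the hairpin. Each arm is 1 viral hairpin in 1 line. Nothing in the labels says that replicates were infected or cultured separately, so the p-values reflect only how far these 6 samples spread, and that spread may be technical.

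A dividing cell copies its DNA in S phase, prepares in G2 and then separates the copies in mitosis. Cyclin B with CDK1 starts mitosis, kinesins and other microtubule proteins build the spindle, and kinetochores tie each chromosome to it. The spindle checkpoint holds back the anaphase-promoting complex until all chromosomes are attached, after which separase opens the cohesin rings and the cell is cut apart by cytokinesis. Transcripts of most of these genes rise in G2 and mitosis. The DREAM and MuvB complexes act at such promoters, with FOXM1 and B-MYB, through a short element called the cell cycle genes homology region (CHR), often beside boxes bound by the factor NF-Y. A bulk sample of cycling cells holds all stages together, so fewer cells in G2 and mitosis and less of each transcript per cell cannot be told apart.

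Promoter sequences are shown first because many of the 48 genes, which lie on 16 chromosomes, carry these elements. RefSeq promoter windows of 300 bases on GRCm38.p6, from 250 bases before to 50 after an annotated start, were found for 40 of the 48 genes. The other 8 were Foxm1, Aurkb, Incenp, Tpx2, Spc24, Ccna2, Cdc25c and Kif20a. Capitals mark the CHR (TTTGAA, or TTCAAA when it lies on the opposite strand), its variant TTTAAA, and the NF-Y box (CCAAT, or ATTGG on the opposite strand). Of the 40 genes, 24 (60%) held both TTTGAA and CCAAT in a window, and 5 held none of the 6 motifs searched, which are given below. The 120 bases before the start of 6 genes, picked by name as examples, follow. Each of these stretches holds a CHR or its variant and an NF-Y box, and all 6 genes were lower in shFam172a. They lie at chr10:69352913-69353032 on the minus strand (Cdk1), chr13:100786487-100786606 on the minus strand (Ccnb1), chr15:102296173-102296292 on the plus strand (Espl1), chr19:37376262-37376381 on the plus strand (Kif11), chr11:99024190-99024309 on the minus strand (Top2a) and chr4:118437344-118437463 on the minus strand (Cdc20).
Cdk1: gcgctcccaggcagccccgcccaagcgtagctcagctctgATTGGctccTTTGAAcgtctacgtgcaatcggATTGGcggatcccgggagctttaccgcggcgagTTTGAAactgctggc
Ccnb1: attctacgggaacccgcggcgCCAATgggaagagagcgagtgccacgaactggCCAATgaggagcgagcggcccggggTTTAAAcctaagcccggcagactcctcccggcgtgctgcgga
Espl1: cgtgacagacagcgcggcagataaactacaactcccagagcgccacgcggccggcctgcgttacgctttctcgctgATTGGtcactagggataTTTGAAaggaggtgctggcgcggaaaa
Kif11: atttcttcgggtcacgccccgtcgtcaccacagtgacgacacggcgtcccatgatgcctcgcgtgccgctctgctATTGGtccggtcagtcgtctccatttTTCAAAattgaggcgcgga
Top2a: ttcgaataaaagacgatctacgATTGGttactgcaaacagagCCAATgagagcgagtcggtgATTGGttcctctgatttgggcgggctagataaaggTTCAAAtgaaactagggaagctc
Cdc20: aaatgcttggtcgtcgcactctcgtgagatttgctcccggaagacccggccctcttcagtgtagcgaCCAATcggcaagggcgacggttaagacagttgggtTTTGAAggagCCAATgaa

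In other genes the CHR lies across or just after the annotated start. For these, 30 bases around the element are shown: Spc25 (chr2:69206172-69206201, minus strand) and Kif23 (chr9:61946780-61946809, minus strand), which were lower, and Racgap1 (chr15:99651634-99651663, minus strand), Anln (chr9:22389161-22389190, minus strand) and Cenpf (chr1:189688067-189688096, minus strand), the 3 genes that did not pass the test.
Spc25: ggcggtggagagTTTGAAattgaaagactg
Kif23: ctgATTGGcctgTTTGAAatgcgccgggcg
Racgap1: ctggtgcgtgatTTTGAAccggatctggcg
Anln: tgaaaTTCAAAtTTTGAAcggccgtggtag
Cenpf: ggcggcgggcagTTTGAAtcgctcgtgctg

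Searched on both strands, TTTGAA was in the windows of 29 of 40 mitosis and spindle genes (72.5%), against 13.8% of 9749 tested genes with a window and 17.9% of all 32851 windows. CCAAT was in 28 of 40 (70%), against 43.4% of tested genes and 37.4% of all windows. TTTAAA was in 9 of 40 (22.5%), against 10.7% of tested genes and 13.2% of windows. Of the 38 TTTGAA matches in the first window of each gene, 29 lay within 50 bases of the start, and of 27 neighbouring CCAAT pairs on the same strand 8 were 30 to 35 bases apart. Positions were not compared with those in other genes. For 28 of the 43 windows of these genes, the bases after the start were found in a GENCODE M21 transcript of the gene. Distances thus hold for the RefSeq start only. The E2F motifs searched were TTTGGCGC, TTTCCCGC and TTCGCGC. They were in 2, 0 and 2 of the 40 genes, in 1.2%, 2.33% and 3.57% of tested genes, and in 0.514%, 1.07% and 1.59% of all windows. Any of the 3 was in 4 of 40 (10%), against 6.79% of tested genes. A match is a string of letters and was not tested as a bound site. Mad2l1, Mybl2, Nuf2, Nusap1 and Pttg1 held none of the 6 motifs in this window.

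**Figure D1:**
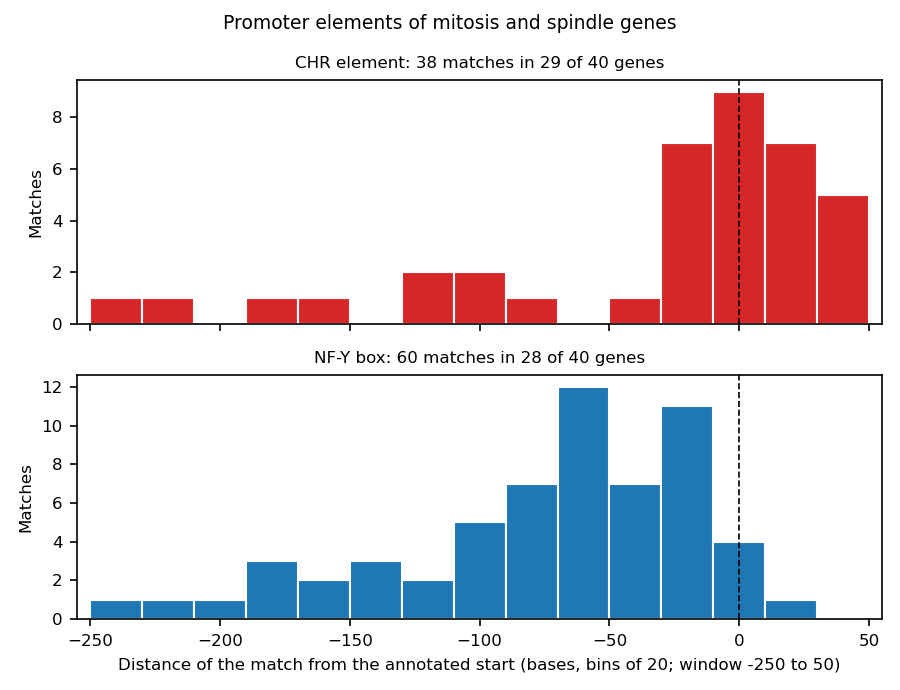
Distance of each CHR element (top) and NF-Y box (bottom) from the annotated start, in bases, in the first RefSeq window of 40 mitosis and spindle genes; bars count matches in bins of 20 bases and the dashed line is the start. The 38 CHR matches crowd around the start, 29 of them within 50 bases of it, while the 60 NF-Y boxes lie mostly before it.

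Fam172a, the targeted gene, was lower in every shFam172a library. Its levels were 18.6, 19.3 and 19.5 CPM (the count relative to all gene counts of the library, scaled by TMM) in shCtrl and 9.22, 8.28 and 9.22 CPM in shFam172a, a log2 fold change of -1.10 ± 0.092 (SE, edgeR quasi-likelihood test, adjusted p = 2.4e-12). Gene counts summed to between 11250312 and 12820531 in shCtrl and to between 21690467 and 23409319 in shFam172a, so the knockdown libraries were also the deeper ones. The ribosomal RNA precursor Rn45s ranged from 410 to 565 CPM in shCtrl and from 793 to 1141 CPM in shFam172a. Replicate 3 of shFam172a had fewer pairs of too low alignment quality than replicates 1 and 2 (4.46% against 6.65% and 7.12%). The part of depth and of Rn45s in the results was not tested beyond the thinning given below. Of 15 neuroblastoma and sympathoadrenal markers, 14 were tested, of which 2 fell and 7 rose. For the 15 together the summed level was 2925 to 2967 CPM in shCtrl and 2990 to 3046 CPM in shFam172a. Summed levels in shCtrl and shFam172a were 11.4 to 12.9 and 9.84 to 12.2 CPM for 8 fibroblast markers, 0.234 to 0.943 and 1.2 CPM in each library for 7 macrophage markers (1 of which was tested and rose), and 26.9 to 29.1 and 28.2 to 33.4 CPM for 7 glial markers. They were 14.4 to 16.4 and 15.6 to 16.8 CPM for 4 endothelial and 1.89 to 2.66 and 2.25 to 3.05 CPM for 5 epithelial markers. Ptprc, Itgam, Aqp4 and Olig1 had 0 counts in all 6 libraries.

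Mitosis and spindle transcripts were lower in shFam172a almost without exception, each by less than 1.5-fold. Of the 48 genes, 45 fell, 0 rose and 3 did not pass the test, at a Benjamini-Hochberg adjusted p under 0.05 over all 12820 genes. Among all tested genes, 18.6% were lower and 17.5% higher by the same rule, and among the 7508 genes at least as abundant as the least abundant of the 48, 25.8% were lower. The median log2 fold change of the 48 genes was -0.25, against -0.0003 over all tested genes, and the median shFam172a mean was 84.0% of the shCtrl mean. The groups did not overlap for 45 of the 48 genes, with shFam172a below, where this held for 23.5% of tested genes. Summed over the 48 genes, the level was 8991, 9155 and 9073 CPM in the shCtrl libraries and 7770, 7623 and 7768 CPM in the shFam172a libraries. Every knockdown library thus lay below every control library. With all libraries thinned to the smallest total, 42 of 48 fell, and without shFam172a replicate 3, 45 fell.

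**Figure D2:**
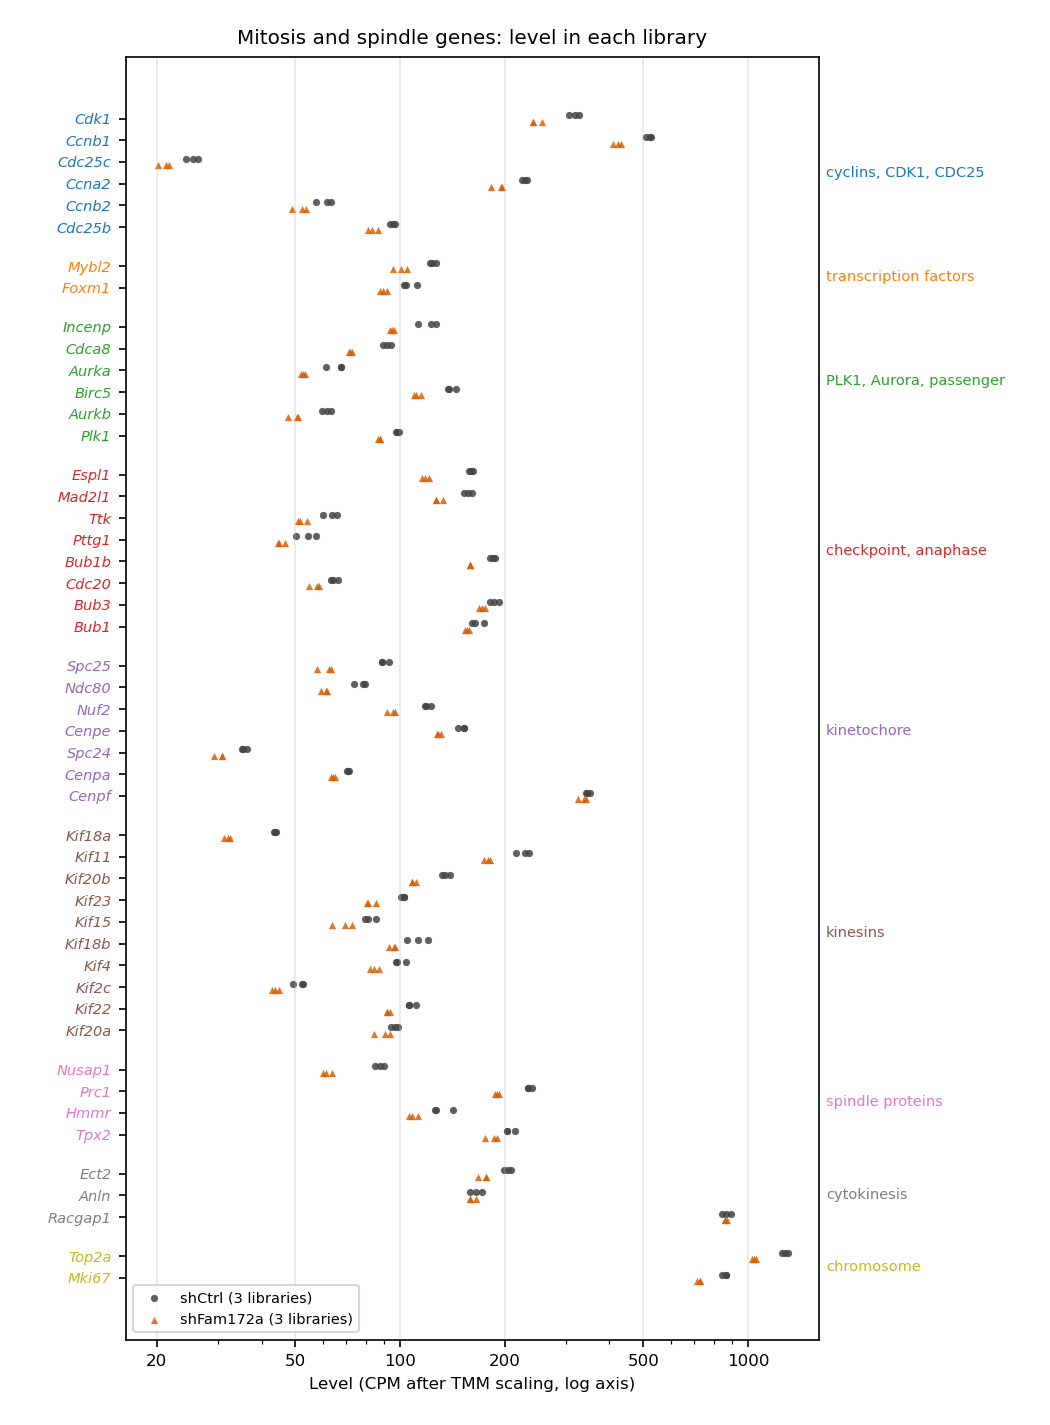
Level of each of the 48 genes in each library, in CPM after TMM scaling on a log axis, grouped by role; circles are the 3 shCtrl libraries and triangles the 3 shFam172a libraries. The triangles lie to the left of the circles in 45 genes and mix with them in Cenpf, Anln and Racgap1.

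CDK1 and its partners, which drive entry into mitosis, all fell (6 of 6). Cdk1, the mitotic kinase, was at 307, 327 and 318 CPM in shCtrl and at 256, 241 and 241 CPM in shFam172a (log2 fold change -0.37 ± 0.031, adjusted p = 4.4e-12). Ccnb1, the cyclin B1 that activates CDK1, was at 522, 528 and 510 CPM in shCtrl and at 422, 410 and 431 CPM in shFam172a (-0.31 ± 0.028). For both genes the lowest control library stood well above the highest knockdown library. Ccna2, cyclin A2 of S phase and G2, was at 224, 232 and 228 CPM against 195, 183 and 196 CPM (-0.25 ± 0.032). The second B-type cyclin Ccnb2 was at -0.23 ± 0.050, and the phosphatases Cdc25b and Cdc25c, which remove inhibitory phosphates from CDK1, were at -0.19 ± 0.041 and -0.27 ± 0.071. The ratio of Ccnb1 to Cdk1 within a library, which does not depend on scaling, was 1.70, 1.62 and 1.61 in shCtrl and 1.65, 1.70 and 1.79 in shFam172a. These ratios overlapped between the groups. The ratio of Ccna2 to Cdk1 was 0.730, 0.709 and 0.716 in shCtrl and 0.761, 0.758 and 0.814 in shFam172a, so those groups were apart, with cyclin A2 higher against the kinase in all 3 knockdown libraries. Ccnb1 has near-identical copies (Ccnb1-ps, Gm12856 and Gm8416, at 97.3% identity or more over 51.7% or more of its longest transcript). Its count is therefore uncertain.

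Both transcription factors of the group fell. Mybl2, which encodes B-MYB, was at 124, 127 and 122 CPM in shCtrl and at 95.2, 105 and 101 CPM in shFam172a (-0.31 ± 0.039, adjusted p = 4.1e-08). Foxm1, which drives many G2 and mitosis genes, was at 103, 104 and 112 CPM against 89.6, 92.0 and 87.9 CPM (-0.24 ± 0.040, adjusted p = 1.2e-05). Neither pair of groups overlapped. Of 5 subunits of the DREAM and MuvB complexes, Rbbp4 (-0.18 ± 0.028), Lin9 (-0.20 ± 0.048) and Lin54 (-0.14 ± 0.047) fell and 0 rose. Of all tested genes, 18.6% were lower. Lin37 (0.042 ± 0.086) and Lin52 (-0.21 ± 0.1) did not pass. These 2 had the lowest shCtrl means of the 5, at 14.9 and 11.8 CPM, and the largest SE. Part of the Mybl2 transcript (20.3%) is nearly identical to Gm3320.

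The polo and Aurora kinases and the chromosomal passenger complex, which corrects faulty chromosome attachments, fell in all 6 genes. Incenp, the scaffold of the complex, was at 113, 123 and 127 CPM in shCtrl and at 94.7, 95.9 and 93.8 CPM in shFam172a (-0.35 ± 0.040). Birc5, the subunit survivin, was at 137, 138 and 145 CPM against 110, 115 and 111 CPM (-0.32 ± 0.036). Cdca8, the subunit borealin, was at 94.1, 89.5 and 91.5 CPM against 72.0, 71.3 and 73.0 CPM (-0.35 ± 0.041). Knockdown libraries were below control libraries in each case, and all 3 genes had adjusted p of 1.2e-08 or less. Aurkb, the kinase of the complex, was at -0.30 ± 0.049. Aurka, the Aurora kinase of centrosomes and spindle poles, was at -0.32 ± 0.048, and Plk1, the polo kinase, at -0.17 ± 0.039.

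The spindle checkpoint and the genes of anaphase onset fell in 8 of 8, over a wider range. Espl1, separase, the protease that opens cohesin (chromosome 15, 102296266 to 102324357 on GRCm38, plus strand), was at 158, 160 and 162 CPM in shCtrl and at 121, 118 and 116 CPM in shFam172a. Its log2 fold change was -0.43 ± 0.034 (adjusted p = 5.6e-13). Mad2l1, the checkpoint protein MAD2, was at 161, 157 and 153 CPM against 127, 127 and 133 CPM (-0.28 ± 0.035), and Bub1b, which encodes BUBR1, at 182, 185 and 187 CPM against 159 CPM in all 3 knockdown libraries (-0.22 ± 0.032). Separase was thus at 74.0% of its control mean and BUBR1 at 86.0%. Ttk, the checkpoint kinase MPS1, was at -0.28 ± 0.048, Pttg1, the separase inhibitor securin, at -0.25 ± 0.052, and Cdc20, the activator of the anaphase-promoting complex, at -0.18 ± 0.047.

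The smallest falls of the checkpoint were those of Bub3 and Bub1, which bind each other at kinetochores. Bub3 averaged 186 ± 5.77 CPM in controls and 172 ± 3.68 CPM in the knockdown (SD, n = 3; -0.11 ± 0.033, edgeR adjusted p = 0.0065). Bub1 was at 166 ± 6.90 and 156 ± 1.98 CPM (-0.092 ± 0.034, edgeR adjusted p = 0.031). Neither call was stable. Without shCtrl replicate 2, Bub1 was at -0.057 (adjusted p = 0.27) and Bub3 at -0.088 (adjusted p = 0.072), and without shFam172a replicate 2 they were at -0.081 (adjusted p = 0.12) and -0.095 (adjusted p = 0.05, not under the threshold). Without shFam172a replicate 1, Bub1 was at -0.091 (adjusted p = 0.06), and with exon length and GC content as an offset it was at -0.041 (adjusted p = 0.32).

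At the kinetochore 6 of 7 genes fell, and the fold changes ranged from the largest fall of all 48 genes to no detected change. Spc25 (chromosome 2, 69193895 to 69206194 on GRCm38, minus strand), a subunit of the microtubule-binding NDC80 complex, was at 88.8, 93.2 and 88.9 CPM in shCtrl and at 63.5, 57.6 and 62.6 CPM in shFam172a. The knockdown mean was 67.8% of the control mean, and the log2 fold change was -0.56 ± 0.045 (adjusted p = 7.6e-13). Nuf2 was at 118, 123 and 119 CPM against 95.6, 91.8 and 97.0 CPM (-0.34 ± 0.038), and Ndc80 at 73.6, 79.3 and 78.4 CPM against 61.6, 59.3 and 61.1 CPM (-0.35 ± 0.045). Spc24, the fourth subunit, was at -0.23 ± 0.060, with adjusted p = 0.0021, and at -0.17 with adjusted p = 0.084 after thinning.

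The subunits of this complex pair off, NDC80 with NUF2 and SPC24 with SPC25. The ratio of Ndc80 to Nuf2 was 0.622, 0.647 and 0.659 in shCtrl and 0.645, 0.646 and 0.630 in shFam172a, so it overlapped between groups. The ratio of Spc24 to Spc25 was 0.398, 0.376 and 0.409 in shCtrl and 0.485, 0.507 and 0.492 in shFam172a, so the groups were apart. These ratios and those given for other gene pairs were chosen after the values were seen and were not tested. Cenpe, a kinetochore motor, was at -0.23 ± 0.034 and Cenpa, the histone H3 variant that marks centromeres, at -0.14 ± 0.044. Cenpf, a large kinetochore and nuclear matrix protein, was at 351, 343 and 345 CPM in shCtrl and at 339, 325 and 343 CPM in shFam172a (-0.044 ± 0.029, adjusted p = 0.25). Its groups touched, with 1 knockdown library at the level of the lowest control. With the offset for length and GC content Cenpf was at -0.10 and passed (adjusted p = 0.0023), so its call depends on that choice.

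All 10 kinesins fell. Kif11, the motor Eg5 that pushes the spindle poles apart, was at 228, 235 and 215 CPM in shCtrl and at 179, 174 and 182 CPM in shFam172a (-0.34 ± 0.033, adjusted p = 8.4e-11). Kif20b, a motor of late mitosis and cytokinesis, was at 139, 135 and 132 CPM against 108, 111 and 108 CPM (-0.31 ± 0.036). Kif18a, which limits the length of kinetochore microtubules, was at 43.8, 43.4 and 43.9 CPM against 32.5, 31.2 and 32.0 CPM (-0.45 ± 0.056). Kif18a fell the most among the kinesins and its groups were far apart, and its exons overlap Mettl15 on the opposite strand. Of the others, Kif23, Kif15, Kif4, Kif18b, Kif2c and Kif22 were at -0.31, -0.25, -0.24, -0.24, -0.23 and -0.22. They comprise a motor of the central spindle (Kif23), a second motor for spindle bipolarity (Kif15), motors that act on chromosomes (Kif4 and Kif22) and regulators of microtubule ends (Kif18b and Kif2c).

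Kif20a, a motor of the central spindle, had the smallest difference among the kinesins, at 96.5 ± 2.42 and 89.6 ± 4.72 CPM (SD, n = 3; -0.11 ± 0.042, edgeR adjusted p = 0.04). Its call was lost without shCtrl replicate 1 (-0.11, adjusted p = 0.073), without shCtrl replicate 2 (-0.09, adjusted p = 0.18) and without shFam172a replicate 2 (-0.065, adjusted p = 0.29). It was also lost with the offset for length and GC content (-0.10, adjusted p = 0.062). Kif20a shares exon sequence with Cdc23 on the opposite strand, and the strand setting of the counting is not given in the sources used here. In all, 14 of the 48 genes share exon sequence with another gene in GENCODE M21, all 14 fell, and of the 34 that share none, 31 fell.

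Spindle assembly proteins fell in 4 of 4. Nusap1, which bundles spindle microtubules near chromosomes (chromosome 2, 119618298 to 119651244 on GRCm38, plus strand), was at 85, 90.0 and 87.5 CPM in shCtrl and at 61.4, 60.2 and 63.7 CPM in shFam172a (-0.50 ± 0.043, adjusted p = 6.1e-12). Prc1, which crosslinks microtubules of the central spindle, was at 233, 233 and 240 CPM against 192, 188 and 190 CPM (-0.31 ± 0.030). Hmmr, a spindle pole protein, was at 127, 142 and 126 CPM against 108, 106 and 113 CPM (-0.27 ± 0.041). Knockdown libraries were lower throughout, and Nusap1 was the second largest fall of the 48 genes. Tpx2, which activates Aurora A on the spindle, was at -0.17 ± 0.033. Oip5, on the opposite strand, overlaps exons of Nusap1.

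Of the 3 genes listed under cytokinesis, 1 fell and 2 did not pass. Ect2, which activates RhoA at the cell equator, was at 209, 205 and 199 CPM in shCtrl and at 177, 168 and 177 CPM in shFam172a (-0.23 ± 0.033, adjusted p = 3.8e-07). Anln, the contractile ring scaffold anillin, was at 172, 165 and 159 CPM against 159, 159 and 165 CPM (-0.039 ± 0.034, adjusted p = 0.39). Racgap1 (chromosome 15, 99620496 to 99651656 on GRCm38, minus strand) was at 843, 863 and 894 CPM against 870, 861 and 857 CPM (-0.0069 ± 0.026, adjusted p = 0.87). For Anln and Racgap1 the groups overlapped, and for Racgap1 the sign turned with upper quartile scaling (0.0072) and without shCtrl replicate 3 (0.018). The SE of Racgap1 was near the smallest among the 48 genes, whose SE ran from 0.025 to 0.071.

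Racgap1 and Kif23 encode the partners of centralspindlin, the complex that sets the site of cleavage, and they moved differently. The ratio of Racgap1 to Kif23 was 8.37, 8.41 and 8.70 in shCtrl and 10.8, 10.1 and 10.6 in shFam172a, so every knockdown library was above every control library. Per kilobase of merged exon, the shCtrl level of Racgap1 was 122 CPM per kb and that of Kif23 12.9 CPM per kb, a ratio of 9.46 between the partners. The ratio of Anln to Ect2 was 0.820, 0.803 and 0.80 in shCtrl and 0.894, 0.944 and 0.933 in shFam172a, and that of Bub1 to Bub1b was 0.902, 0.940 and 0.859 against 0.985, 0.971 and 0.992. In each of these pairs the gene with the smaller change gained on its partner in all 3 knockdown libraries. That direction follows from the fold changes given above, and the pairs were chosen after the values were seen, so it adds no support.

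Both chromosome proteins fell. Top2a, topoisomerase II alpha, which untangles DNA before separation, was at 1280, 1299 and 1255 CPM in shCtrl and at 1058, 1026 and 1040 CPM in shFam172a (-0.30 ± 0.025, adjusted p = 5.3e-12). Mki67, the coat of mitotic chromosomes and the source of the Ki-67 proliferation stain, was at 844, 863 and 866 CPM against 728, 714 and 728 CPM (-0.25 ± 0.026, adjusted p = 8.1e-10). Their control and knockdown libraries were well apart.

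**Figure D3:**
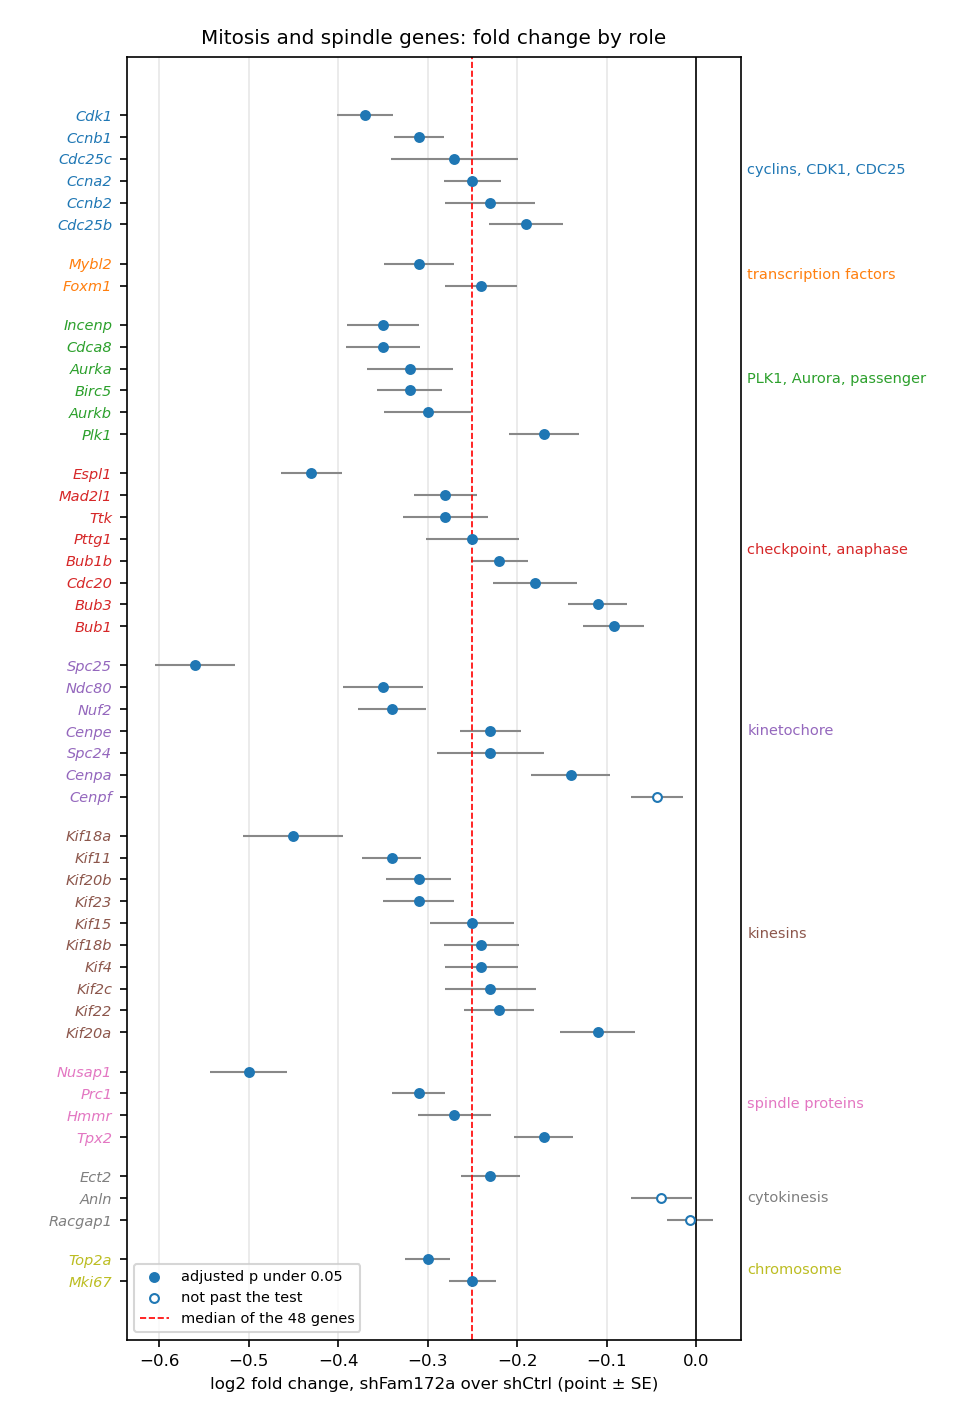
Log2 fold change of each of the 48 genes, shFam172a over shCtrl, with bars of 1 SE, ordered within roles; filled points passed at adjusted p under 0.05, open points did not, and the dashed line is the median of the 48 genes. The filled points run from -0.56 (Spc25) to -0.092 (Bub1), and the 3 open points are Cenpf, Anln and Racgap1.

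Among themselves the 48 genes were not all lowered by the same amount. Of the 48, 10 lay more than 2 SE below their median of -0.25 and 9 more than 2 SE above it. By fitted value, 10 genes were lower by at least 0.322 on the log2 scale and 0 were at least 1.5-fold lower. Birc5 (-0.320) and Aurka (-0.318) lay just short of the first of these. In a test that asks for a change beyond 0.322 on the log2 scale, 3 of the 48 passed (Spc25, Espl1 and Nusap1), where 0.398% of tested genes were lower by that rule. Across the 48 genes, which share the same 6 libraries, log2 fold change had a Pearson r of 0.25 with log2 mean CPM, 0.06 with log2 exon length and 0.15 with GC percent. Levels per kilobase in shCtrl ran from 4.45 CPM per kb (Kif18a) to 142 CPM per kb (Top2a), with a median of 24.9 CPM per kb. Ccnb1 at 123 CPM per kb and Racgap1 at 122 CPM per kb stood beside Top2a at the top, and of these 3 Racgap1 did not pass the test.

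**Figure D4:**
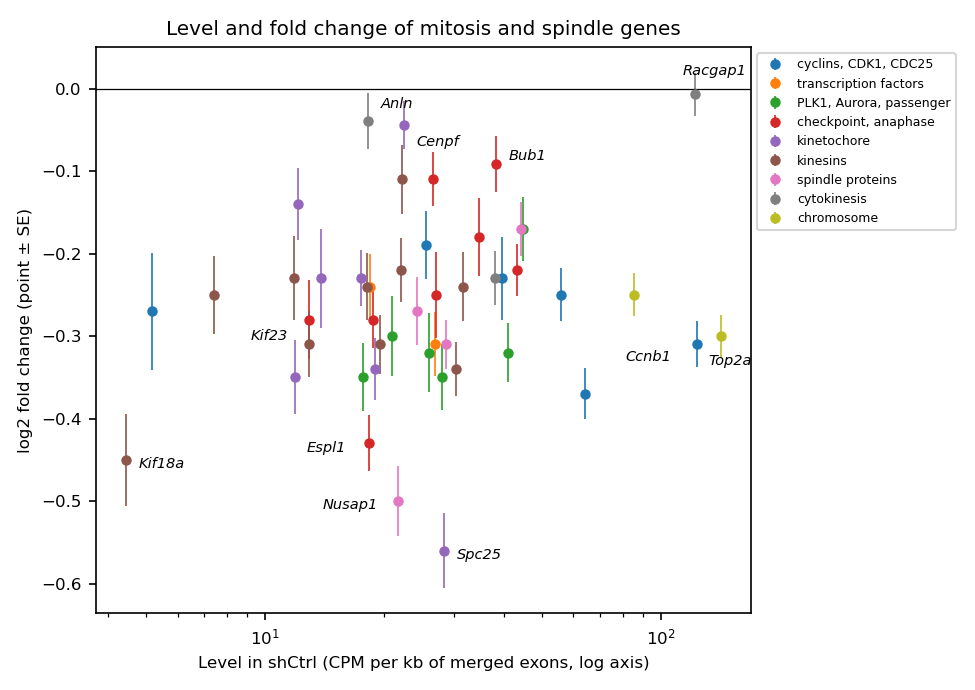
Level in shCtrl (mean CPM per kb of merged exons, log axis) against log2 fold change with bars of 1 SE for the 48 genes, coloured by role. Top2a, Ccnb1 and Racgap1 have the highest levels, and Racgap1 is the 1 of them that lies at 0.

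Genes fell with and without TTTGAA. Of the 29 genes with TTTGAA, 26 fell, with a median log2 fold change of -0.25, and of the 11 without it, 11 fell, with a median of -0.31. Those 11 are not all without a CHR, since Ccnb1, Birc5 and Cenpe hold the variant TTTAAA. Either form was in 32 of 40 genes, and calls were not split by the variant. Racgap1, Anln and Cenpf, shown above, all have TTTGAA. Nusap1, the second largest fall, has none of the motifs in its window. Among tested genes outside the 48, 23.4% of 1319 with TTTGAA were lower and 14.5% higher, against 18% lower and 17.9% higher of 8390 without it. For CCAAT the shares lower were 20.1% with and 17.8% without, and for the E2F motifs 24.6% and 18.4%. These shares are descriptions over genes of the same libraries and were not tested.

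Other genes of mitosis, from a list of 117 genes that excludes the 48, were also mostly lower but more mixed. Of 116 tested, 77 fell and 8 rose, 31 were not past the threshold, and the median was -0.20. The strongest falls by p were those of Pbk, a mitotic kinase (142 ± 2.38 to 101 ± 0.942 CPM, log2 fold change -0.48 ± 0.036), Smc4, a core condensin subunit (-0.30 ± 0.026), and Ckap2, a spindle-associated protein (-0.42 ± 0.040). The strongest rises were those of Numa1, which anchors spindle poles in mitosis and lies in the nucleus of interphase cells (152 ± 3.43 to 186 ± 1.86 CPM, 0.29 ± 0.033), the kinase Nek9 (0.17 ± 0.038) and Ncaph2, a condensin II subunit (0.12 ± 0.030). By role, 19 of 26 other kinetochore genes, 6 of 8 condensin subunits, 14 of 18 kinases and regulators and 21 of 30 spindle, centrosome and kinesin genes fell. Of 9 other cytokinesis genes 6 fell and 1 rose, and of 20 other checkpoint and separation genes 8 fell and 3 rose.

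S-phase genes fell in 23 of 35 and rose in 0, with a median of -0.21. Rrm2, a ribonucleotide reductase subunit, and Prim1, a primase subunit, were at -0.67 ± 0.039 and -0.54 ± 0.040. The share of the 48 genes that fell was 93.8%, against 65.7% of S-phase genes and 66.4% of the other mitosis genes. The lists differ in make-up and level, and the difference between them was not tested. The other mitosis genes include 12 subunits of the anaphase-promoting complex, of which 1 fell. They also include genes below the least abundant of the 48 (23.2 CPM over the 6 libraries), such as Nek6 at 8.66 CPM in shCtrl. S-phase promoters differed in letters: 4 of 25 with a window held TTTGAA (16%) and 12 held an E2F motif (48%), against 72.5% and 10% of the mitosis and spindle genes. CCAAT was closer, in 60% of these S-phase genes against 70% of the mitosis and spindle genes. Of 103 other mitosis genes with a window, 58.3% held CCAAT, 33% TTTGAA and 10.7% an E2F motif.

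**Figure D5:**
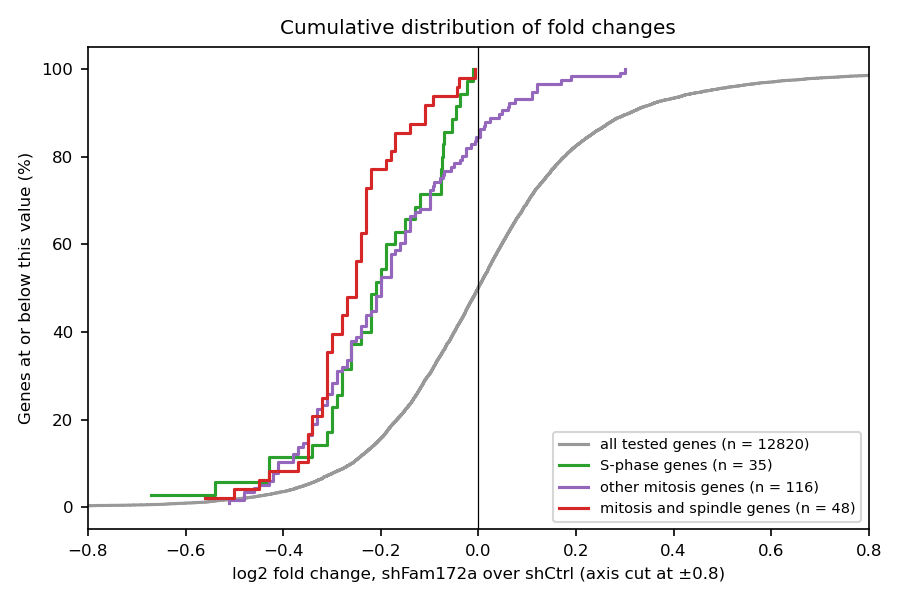
Cumulative share of genes (percent) at or below each log2 fold change, shFam172a over shCtrl, for the 48 mitosis and spindle genes, 116 other mitosis genes, 35 S-phase genes and all 12820 tested genes; the axis is cut at 0.8 on both sides. The curve of the 48 genes lies wholly below 0, as does that of the S-phase genes, while all tested genes centre on 0.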

How the data were processed

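The authors deposited unnormalized counts of read pairs, 1 row per gene symbol. Per the submitters' processing notes, HISAT2 2.0.5, HTSeq and mm10 were used. For annotation and strand setting, the sources used here give nothing. The 6 single-sample files held the same counts as the series table. The 5 rows that name no gene (16.4% to 17.9% of pairs in no gene, 9.58% to 10.4% with several alignments) stayed out of library sizes and tests. Libraries of a group differed by more than counting noise (chi-square per degree of freedom 1.61 to 2.84), so none was treated as a repeat deposit of another. This does not show that they came from separate cultures.

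Counts were filtered with filterByExpr, scaled by TMM and tested in edgeR 4.0.16 (glmQLFit with robust estimation, glmQLFTest; R 4.3.3), with group as the term. SE is the size of the log2 fold change divided by the square root of F. Alternatives included DESeq2 1.42.0 and limma 3.58.1. Exon lengths and overlaps came from GENCODE M21, with 1 length for 99.5% of tested genes. Near-identical copies had at least 95% identity over 300 bases and 20% of a transcript.

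The 48 genes and the lists were chosen with earlier results of these data known. Per-library values are given for the 3 genes of smallest adjusted p in each role and for genes that did not pass, and in the other lists the 3 of smallest adjusted p in each direction are named. Some items that this rule would name are not reported here. Of the 117 other mitosis genes, 6 were matched by an older symbol. Libraries with the same replicate number did not deviate together, as given under the closing remarks on processing.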

Additional observations from a re-analysis of the deposited data

Results flagged for a closer look

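Pairs that fell in no gene made up a larger share of every shFam172a library than of any shCtrl library, with means of 17.4% and 16.5%. Pairs with several alignments were also a larger share in all 3 shFam172a libraries, with means of 10.3% and 9.64%. Both come from rows of the table that enter no test, and their part in the lower mitosis and spindle genes was not tested.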

How the results depend on the processing

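Of the 48 genes, 42 kept their call and direction in all 18 settings other than the test against a minimum change, and 41 were called lower in every one of them. The exceptions were Bub1, Bub3, Kif20a, Spc24, Cenpf and Racgap1. Racgap1, which did not pass in any setting, turned sign with upper quartile scaling (0.0072) and without shCtrl replicate 3 (0.018), with a range of -0.025 to 0.018 as libraries were left out in turn. Upper quartile scaling and DESeq2 ended the calls of Bub1 and Kif20a, as did the offset for length and GC content with and without the replicate block, and thinning to the smallest library those of Bub3, Spc24 and Kif20a. Tested against a minimum change of 0.322 on the log2 scale, 266 genes were called in all, 3 of the 48, 2 other mitosis genes and 2 S-phase genes, since that test asks for a larger difference. Leaving out 1 library at a time, 42 to 45 of the 48 genes were called, with medians from -0.272 to -0.249, and 3681 to 4320 genes in all. With DESeq2, 43 of the 48 and 3407 genes in all were called. Libraries with the same replicate number were not correlated in their deviations (r = -0.00544, -0.00376 and -0.00964), so no shared deviation by number was seen. This cannot show whether samples of the same number were handled together. With the replicate block 45 of the 48 were called, with a median of -0.255, and with the length and GC correction together with the block 44 were called, with a median of -0.251. The smallest count of any of the 48 genes in a library was 297, and the calls lost on thinning were of genes with log2 fold changes from -0.23 to -0.11.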

Other observations

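The anaphase-promoting complex is the target of the spindle checkpoint. Of 12 of its subunits, taken from the list of other mitosis genes after the values were seen, 1 fell and 2 rose. Anapc10 fell (-0.29 ± 0.10, with overlapping groups), and Cdc26 (0.30 ± 0.085) and Anapc11 (0.19 ± 0.069) rose. The other 9 were not past the threshold, and the median over these 12 was 0.003. Anapc15 (0.028) and Anapc16 (0.051) lie outside that list and were also not past the threshold. Of all tested genes 18.6% were lower and 17.5% higher, so nothing is read from these counts. Cdc27 was at 234 ± 4.47 and 233 ± 9.76 CPM and Anapc4 at 114 ± 0.0895 and 115 ± 2.19 CPM (SD, n = 3). Augmin, the complex that seeds microtubules inside the spindle, was chosen in the same way. Of its 8 subunits 5 fell and 0 rose, 3 were not past the threshold, and the median was -0.22. Haus3 had the smallest p (57.7 ± 2.02 to 45.8 ± 1.34 CPM, -0.34 ± 0.050).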
